A study of Homo sapiens with 4 samples.

Results

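Interferon-stimulated genes were followed in MM.1S, a line of human myeloma cells long kept in culture, after treatment with JG342, an allosteric inhibitor of HSP70 chaperones. The list holds 49 gene symbols, chosen as genes known to be induced by interferons, and all 49 were found in the deposited table of 16057 genes. Of these, 37 had a mean of at least 1 TPM (transcripts per 1000000 transcripts, corrected for length) over the 4 libraries and were tested among the 12042 genes that passed this limit. Total RNA was sequenced from cells given 350 nM JG342 or the solvent DMSO for 26 h, with 2 libraries per treatment, which the series describes as biological duplicates. The labels name no interferon treatment, so the levels given here are those of cells without added interferon. All groups are of 1 cell line at 1 dose and 1 time.

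Interferons are secreted proteins that bind receptors on the cell surface and activate the kinases JAK1, JAK2 and TYK2. Type I interferons act through ISGF3, a transcription factor complex that includes STAT2 and IRF9 and binds the interferon-stimulated response element (ISRE) in promoters. Type II interferon acts mainly through another promoter element, the gamma-activated sequence (GAS). The genes switched on in this way hinder viruses at many steps, from sensing of foreign RNA to RNA decay, and several remain expressed at a low level without interferon.

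The libraries totalled between 994463 and 994718 TPM, the read depth behind these values is not recorded in TPM, and 1118 to 1418 genes per library were listed at 0. Markers of plasma cells and myeloma were present (8 of 8, summed level 4187 to 4936 TPM). Among them IRF4 and PRDM1 were higher and TNFRSF17 lower with JG342 (limma adjusted p 0.000986, 0.0410 and 0.0472). After scaling the libraries to equal medians IRF4 still passed (limma adjusted p 0.00716), and PRDM1 and TNFRSF17 missed the threshold (0.0974 and 0.0554). No myeloma marker was at 0, and the B cell marker PAX5 reached at most 0.26 TPM in any library. Of the 3 NK cell markers 2 were in the table, NCAM1 and GNLY, and their summed level was 10.9 and 10.3 TPM in DMSO replicates 1 and 2 and 16.0 and 19.5 TPM in JG342 replicates 1 and 2. Of these NCAM1 rose, from 5.93 and 2.79 TPM to 12.3 and 8.47 TPM (limma adjusted p 0.0247), and GNLY overlapped between treatments (3.65 and 11.0 TPM with JG342). The NCAM1 call was lost with equal medians (limma adjusted p 0.0540) and without the limit of 1 TPM (0.1325). The T cell markers in the table, 3 of 4 listed, summed to 5.83 and 8.11 TPM in DMSO. In JG342 they summed to 5.35 and 3.35 TPM. Almost all of this was CD3E, with CD2 and CD8A at 0.27 TPM or below. CD3E had a limma adjusted p of 0.132, of 0.00753 with the replicate block and of 0.0559 with the block and equal medians. Its log2 fold change was −0.05 in replicate 1 and −1.05 in replicate 2. The myeloid markers in the table, 4 of 5 listed, summed to between 37.4 and 46.2 TPM per library, almost all of it LYZ. Epithelial markers summed to between 4.42 and 8.56 TPM, and stromal markers to between 0.80 and 1.39 TPM. The part of these marker levels in the results below was not tested. In bulk RNA, fewer cells with a transcript and less of it per cell cannot be told apart.

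The promoters show what the genes of this list share in sequence. Windows from 250 bases before to 50 bases after the transcription start were available from RefSeq (GRCh38.p14) for 39 of the 49 genes, with DDX58 found under its newer symbol. The ISRE core was searched on both strands as GAAA, any 2 bases and a further GAAA, and the GAS core as TTCNNNGAA, which reads the same on both strands; overlapping matches were counted separately, and matches of both kinds can share bases. An ISRE core was found for 25 of the 39 genes (64.1%), against 4.38% of all 27305 genes with windows, and for 29 of their 54 windows (53.7%), against 3.57% of all windows. A GAS core was found for 12 of the 39 (30.8%), against 9.38% of all genes. A match is a description of these letters and does not show that a factor binds.

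Stretches of promoters with a match are shown for 5 genes that differed between treatments and for ISG15 and HERC5, which belong to one conjugation pathway. Capitals mark the ISRE or GAS cores, and each stretch lies wholly before the transcription start.
IRF9, chr14:24161182-24161230, plus strand: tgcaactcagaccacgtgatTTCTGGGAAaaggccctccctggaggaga
OAS1, chr12:112906774-112906822, plus strand: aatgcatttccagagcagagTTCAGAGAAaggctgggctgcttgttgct
GBP1, chr1:89065306-89065355, minus strand: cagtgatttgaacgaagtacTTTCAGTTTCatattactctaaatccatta
IFITM1, chr11:313980-314039, plus strand: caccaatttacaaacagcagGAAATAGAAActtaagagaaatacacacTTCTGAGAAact
IFIT5, chr10:89414503-89414567, plus strand: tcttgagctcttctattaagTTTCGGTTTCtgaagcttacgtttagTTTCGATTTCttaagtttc
ISG15, chr1:1013364-1013419, plus strand: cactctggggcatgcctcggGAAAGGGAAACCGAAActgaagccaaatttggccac
HERC5, chr4:88456974-88457074, plus strand: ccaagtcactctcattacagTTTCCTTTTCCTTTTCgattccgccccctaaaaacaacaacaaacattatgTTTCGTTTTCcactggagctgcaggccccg
The capitals in IRF9 and OAS1 are GAS cores alone, those in IFITM1 are 1 core of each kind, and those in the other 4 are ISRE cores, of which 2 overlap in ISG15 and 2 in HERC5. IFITM1 and IFIT5 each hold 1 further ISRE core that crosses the transcription start and is not shown. The STAT2 window held neither core.

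Interferon-stimulated genes did not move as one group. Of the 37 tested, 6 were higher and 1 was lower after JG342 at an adjusted p under 0.05 (limma on log2(TPM + 1), two-sided, Benjamini-Hochberg over the 12042 genes). That is 16.2% higher and 2.70% lower, where 10.8% and 7.62% of all genes tested passed in the same directions (18.4% in either), so the share of these genes that passed was close to the background. After scaling the libraries to equal medians 4 were higher and 2 lower, where 8.02% and 9.97% of all genes tested passed. After quantile normalization 3 were higher and 2 lower, where 1016 and 984 of the 12042 genes tested passed. STAT2, IRF9, OAS1, IFITM1, GBP2 and IFIT5 rose and GBP1 fell; GBP2 and IFIT5 missed the threshold under both scalings and IFITM1 with quantile normalization, while HERC5 passed as lower under both. The median log2 fold change of the 37 genes was 0.066, beside 0.027 for all genes tested, with 21 of the 37 above 0; with equal medians these were 0.006, −0.035 and 19. The treatments did not overlap for 15 genes that were higher and 8 that were lower with JG342, that is 23 of 37, where 34.0% and 28.2% of all genes tested did so in each direction. With the replicate number as a block, 16 of the 37 passed, 13 higher and 3 lower. Over all genes tested 19.2% and 15.7% passed in this fit (34.9% in either direction). In the fit with the block alone the spread came from genes of like level, not from each gene itself. With the block and equal medians 8 were higher and 5 lower, where 1675 and 2310 of the 12042 genes tested passed. Without DMSO replicate 2 only STAT2 passed, in a fit of 3 libraries in which 767 genes passed in place of 2221.

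**Figure D1:**
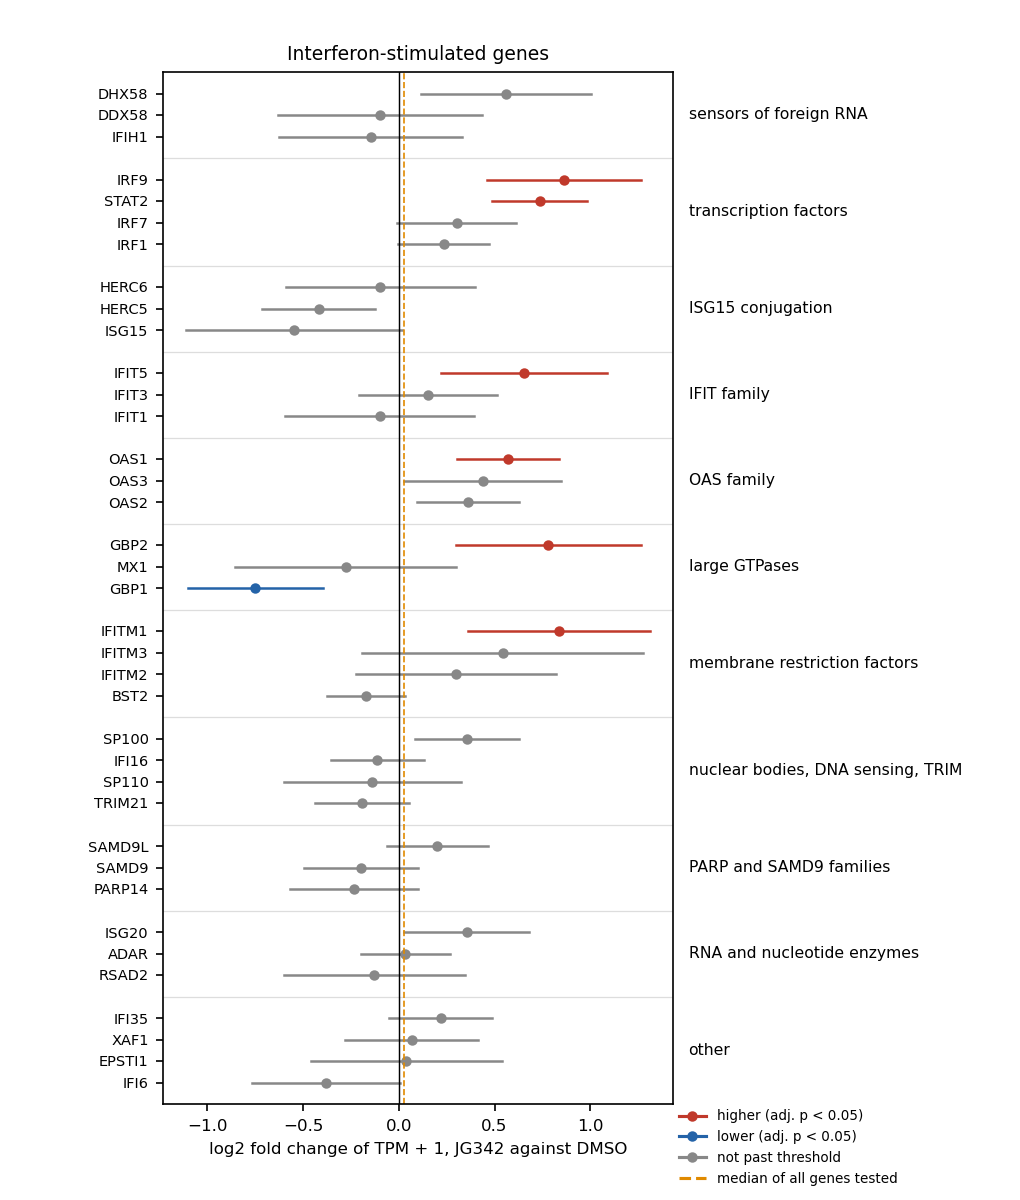
Log2 fold change of TPM + 1 between JG342 and DMSO for the 37 interferon-stimulated genes tested, grouped by role. Points are limma estimates from 2 libraries per treatment, bars are 95% confidence intervals, red and blue mark adjusted p under 0.05, and the dashed line is the median of all genes tested; the estimates lie on both sides of 0, with 6 genes higher and 1 lower.

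STAT2 and IRF9, which encode subunits of the ISGF3 transcription factor, both rose. STAT2 (NM_005419), the subunit that carries the activation domain, was at 55.0 and 58.5 TPM in DMSO replicates 1 and 2 and at 101.9 and 88.5 TPM in JG342 replicates 1 and 2. Both treated libraries lay above both controls, with a 1.68-fold ratio of means, and its log2 fold change was 0.73 ± 0.11 (standard error), at a limma adjusted p of 0.00328. STAT2 passed under all 13 alternatives, with log2 fold changes from 0.63 to 0.84. IRF9 (NM_006084), the DNA-binding subunit, was at 13.1 and 8.85 TPM with DMSO and 21.2 and 19.6 TPM with JG342. The treatments did not overlap, although the controls differed from each other, and the change was 0.86 ± 0.18 (limma adjusted p 0.0122). IRF9 missed the threshold without the limit on low values (limma adjusted p 0.0816) and without DMSO replicate 2 (0.0805). A GENCODE read-through transcript contains the whole IRF9 transcript, so reads of both cannot be separated.

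Both other transcription factors of the list were higher in both treated libraries without passing the threshold. IRF1, which is induced mainly through GAS elements, was at 79.2 and 70.4 TPM with DMSO and 90.4 and 85.8 TPM with JG342. Its difference was 0.23 ± 0.10 (limma adjusted p 0.154; 0.0461 with the replicate block, and 0.164 with the block and equal medians). IRF7, which amplifies interferon production, was at 21.2 and 18.8 TPM with DMSO and 27.2 and 22.6 TPM with JG342, a difference of 0.30 ± 0.14 (limma adjusted p 0.162). All 4 transcription factors thus had treated libraries above both controls, and 2 of them passed. Over all genes tested, 34.0% were higher without overlap and 10.8% passed as higher.

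**Figure D2:**
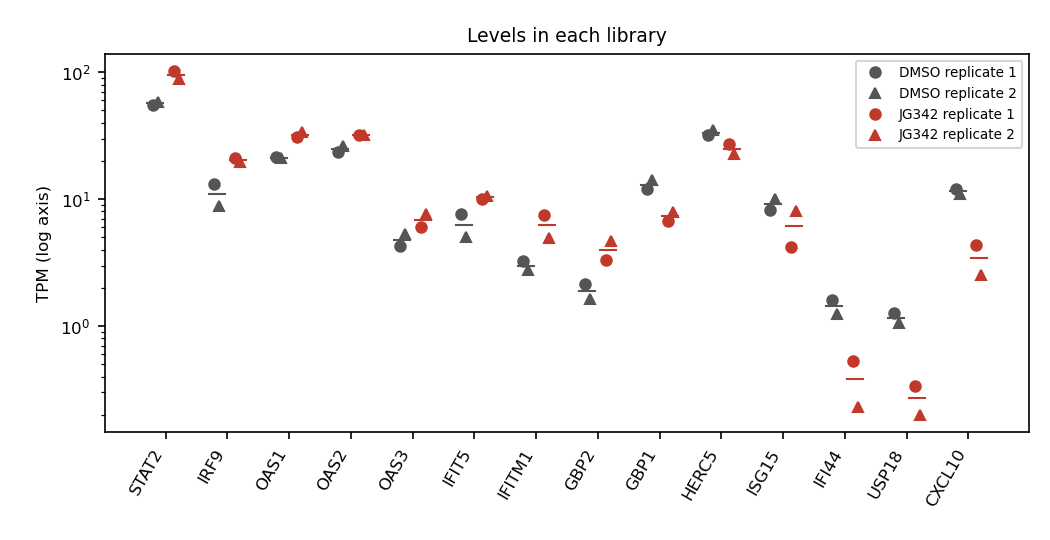
TPM in each library, on a log axis, for 13 interferon-stimulated genes and CXCL10. Grey marks DMSO and red JG342, circles are replicate 1 and triangles replicate 2, and horizontal lines are means of 2 libraries; the ISGF3 genes STAT2 and IRF9 sit higher with JG342, while GBP1, USP18, IFI44 and CXCL10 sit lower.

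Of 10 interferon genes listed, 2 were in the table, and both were low. IFNB1, the gene for interferon beta, was listed at 0 in both DMSO libraries and JG342 replicate 1 and at 0.24 TPM in JG342 replicate 2. IFNG, the gene for type II interferon, was at 0.53 TPM in each DMSO library and at 0.37 and 0.17 TPM with JG342. Neither reached the limit for testing, and the other 8 were not analysed here.

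Receptor transcripts for type I interferon were plentiful and did not differ beyond the spread. IFNAR1 was at 75.1 and 75.3 TPM with DMSO and 79.6 and 60.7 TPM with JG342, so the treated libraries lay on either side of the controls (log2 fold change −0.11, 95% interval −0.41 to 0.19). IFNAR2 was at 117 and 126 TPM with DMSO and 117 and 129 TPM with JG342, and its interval ran from −0.21 to 0.24. IFNGR1, the ligand-binding chain of the type II receptor, rose from 22.1 and 18.9 TPM to 31.3 and 26.6 TPM, by 0.48 ± 0.14 (limma adjusted p 0.0424). This call was lost in 7 of 13 alternatives, among them scaling to equal medians (limma adjusted p 0.0723).

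Of 4 further kinases and signal transducers of the pathway tested, 2 passed, both as higher. These 4 genes are too few to compare with the 10.8% of all genes tested that passed as higher. JAK1, the kinase shared by all interferon receptors, was at 70.1 and 65.0 TPM with DMSO and 106.9 and 96.1 TPM with JG342, a rise of 0.58 ± 0.10 (limma adjusted p 0.00754). STAT3, which serves the IL6 family of cytokines as well, was at 21.4 and 21.9 TPM with DMSO and 36.9 and 32.5 TPM with JG342, a rise of 0.66 ± 0.12 (limma adjusted p 0.00798). JAK2, the partner of JAK1 at the type II receptor, was at 7.84 and 5.86 TPM with DMSO and 10.8 and 9.01 TPM with JG342. The treatments did not overlap, and the difference was 0.48 ± 0.18 (limma adjusted p 0.0933; 0.0110 with the replicate block). TYK2, the partner of JAK1 at the type I receptor, stayed between 47.0 and 49.9 TPM in all 4 libraries, with an interval of −0.25 to 0.23.

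Genes of nucleic acid sensing and of negative control were set beside all genes tested. Among 19 sensing adaptors, kinases and factors, IRF5 rose and IKBKE fell. That is 5.26% in each direction, where 10.8% of all genes tested passed as higher and 7.62% as lower. IRF5, a factor that drives interferon and cytokine genes below Toll-like receptors, was at 80.2 and 76.0 TPM with DMSO and 111 and 101.6 TPM with JG342 (0.44 ± 0.10, limma adjusted p 0.0183). IKBKE, a kinase that activates IRF3 and IRF7, was at 37.1 and 35.8 TPM with DMSO and 24.6 and 24.4 TPM with JG342 (−0.55 ± 0.11, limma adjusted p 0.0108). None of the 6 negative regulators tested passed with limma in this fit, and none of them had an unadjusted p under 0.05. None passed with the block either. Of the 12042 genes tested, 18.4% passed and 4044 had an unadjusted limma p under 0.05. These 6 genes are too few to compare with those shares. SOCS3, an inhibitor of JAK kinases, was below the limit for testing. Over the 35 pathway genes tested, 4 were higher and 1 lower (11.4% and 2.86%, where the backgrounds were 10.8% and 7.62%). With the replicate block 7 and 2 passed, where 19.2% and 15.7% of all genes tested did. The block added JAK2, IRF3 (0.0104) and IL10RB (0.0434) as higher and SAMHD1 (0.0110) as lower, with limma adjusted p in parentheses. With the block and equal medians IRF3 and IL10RB missed the threshold, and TICAM1, MYD88 and IRF2 passed as lower. The split was then 5 higher and 5 lower, where 1675 and 2310 of the 12042 genes tested passed. Without DMSO replicate 1 the log2 fold changes of JAK1, STAT3, IFNGR1, IRF5 and IKBKE were 0.633, 0.64, 0.589, 0.478 and −0.531. With DMSO replicate 2 left out instead they were 0.526, 0.673, 0.368, 0.401 and −0.578. IRF5 missed the threshold in 5 of 13 alternatives, IKBKE in 2 and JAK1 in 1, and these include the fit without DMSO replicate 2 for each of them, while STAT3 passed in all 13.

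**Figure D3:**
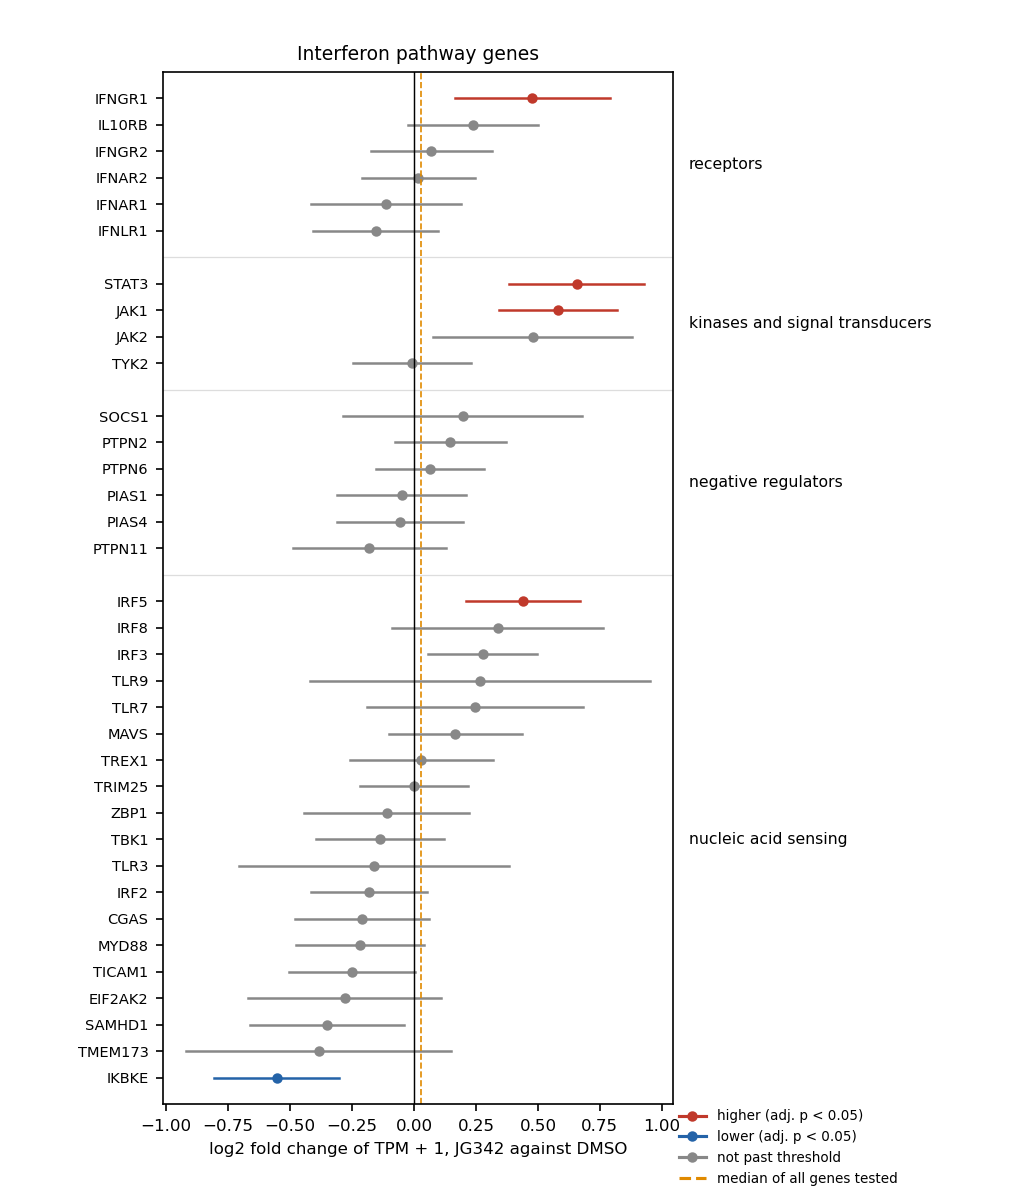
Log2 fold change of TPM + 1 between JG342 and DMSO for the 35 interferon pathway genes tested that are not among the 49 interferon-stimulated genes. Points are limma estimates from 2 libraries per treatment with 95% confidence intervals, coloured where adjusted p is under 0.05; 4 genes were higher, among them JAK1 and STAT3, and IKBKE was lower.

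The OAS genes, whose enzymes are switched on by double-stranded RNA and make a second messenger from ATP, were all higher in both treated libraries, and 1 passed. OAS1 (NM_001032409) was at 21.5 and 21.0 TPM with DMSO and 30.7 and 33.6 TPM with JG342. Its log2 fold change was 0.57 ± 0.12 (limma adjusted p 0.0120), and it missed the threshold only where a DMSO library was left out (0.0578 and 0.0809 without replicates 1 and 2). OAS2 was at 23.5 and 26.3 TPM with DMSO and 32.2 TPM in each JG342 library, a difference of 0.36 ± 0.12 (limma adjusted p 0.0640; 0.0106 with the replicate block). OAS3 had the lowest level of the 3, at 4.24 and 5.32 TPM with DMSO and 6.08 and 7.59 TPM with JG342, a difference of 0.44 ± 0.18 (limma adjusted p 0.126; 0.0351 with the block, and 0.0668 with the block and equal medians). Neither treatment overlapped the other for these 3 genes, which lie side by side on chromosome 12. Of all genes tested 34.0% were higher without overlap. OASL, a relative without the enzyme activity, was at 0 to 0.57 TPM and was not tested.

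IFIT genes encode proteins that bind viral RNA and block its translation, and here they differed among themselves. IFIT5 (NM_012420) was at 7.61 and 4.99 TPM with DMSO and 10.1 and 10.6 TPM with JG342, a rise of 0.66 ± 0.19 (limma adjusted p 0.0446). The control libraries differed more than the treated ones. The IFIT5 call was lost in 7 of 13 alternatives, and its log2 fold change ran from 0.39 without DMSO replicate 2 to 0.92. IFIT3 was at 7.43 and 6.48 TPM with DMSO and 8.35 and 7.33 TPM with JG342, and IFIT1 at 1.33 and 1.02 TPM with DMSO and 1.13 and 0.92 TPM with JG342. Both overlapped between treatments (limma adjusted p 0.539 and 0.785). IFIT2 was listed at 0 in 3 libraries and at 0.06 TPM in the other. IFIT1, which interferon induces strongly, was the least expressed of the 37 genes tested.

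Membrane proteins that restrict virus entry or release were split by level. BST2, or tetherin, which holds budding viruses on the cell surface, was the most expressed of the 49 genes. It was at 444 and 424 TPM with DMSO and 395 and 376 TPM with JG342, lower in both treated libraries by −0.17 ± 0.09 (limma adjusted p 0.212). IFITM proteins block fusion of viruses with endosomes, and their transcripts were far below that of BST2 in level. IFITM1 (NM_003641) was at 3.24 and 2.76 TPM with DMSO and 7.54 and 4.95 TPM with JG342, a rise of 0.84 ± 0.21 (limma adjusted p 0.0258) that passed in 7 of the 12 alternatives in which it was tested. IFITM2 was at 3.29 and 2.09 TPM with DMSO and 4.17 and 2.88 TPM with JG342, with overlap. IFITM3 was at 1.19 and 0.44 TPM with DMSO and 2.48 and 0.92 TPM with JG342, also with overlap (limma adjusted p 0.277; 0.0453 with the replicate block, and 0.103 with the block and equal medians). IFITM1 and IFITM2 share 99.7% identity over 44.7% of the IFITM1 transcript, so how reads were divided between these 2 genes is uncertain. IFITM3 shares 95.3% identity over 49.8% of its transcript with a processed pseudogene that is absent from the deposited table. Reads from either may be counted in IFITM3. Summed over the 3 IFITM genes the level was 7.72 and 5.29 TPM with DMSO and 14.2 and 8.75 TPM with JG342, so the treatments did not overlap in the sum.

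Large GTPases gave the single fall and 1 of the rises, in genes that neighbour each other on chromosome 1. GBP1 (NM_002053), a guanylate-binding protein that attacks the vacuoles of microbes, was at 11.95 and 14.1 TPM with DMSO and 6.76 and 7.93 TPM with JG342. Both treated libraries were lower, at 0.564 of the DMSO mean, and the change was −0.75 ± 0.16 (limma adjusted p 0.0127). GBP1 missed the threshold without the limit on low values (limma adjusted p 0.0674) and without DMSO replicate 2 (0.108). GBP2 (NM_004120), a protein of the same family, was at 2.15 and 1.64 TPM with DMSO and 3.31 and 4.70 TPM with JG342, a rise of 0.78 ± 0.21 (limma adjusted p 0.0349). This call was lost in 6 of the 12 alternatives in which GBP2 was tested, among them scaling to equal medians (limma adjusted p 0.0620). MX1, a GTPase that traps viral nucleocapsids, was at 8.06 and 4.34 TPM with DMSO and 5.49 and 4.07 TPM with JG342. Its controls lay further apart than the treatment means (limma adjusted p 0.480), and MX2 stayed under 0.3 TPM.

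**Figure D4:**
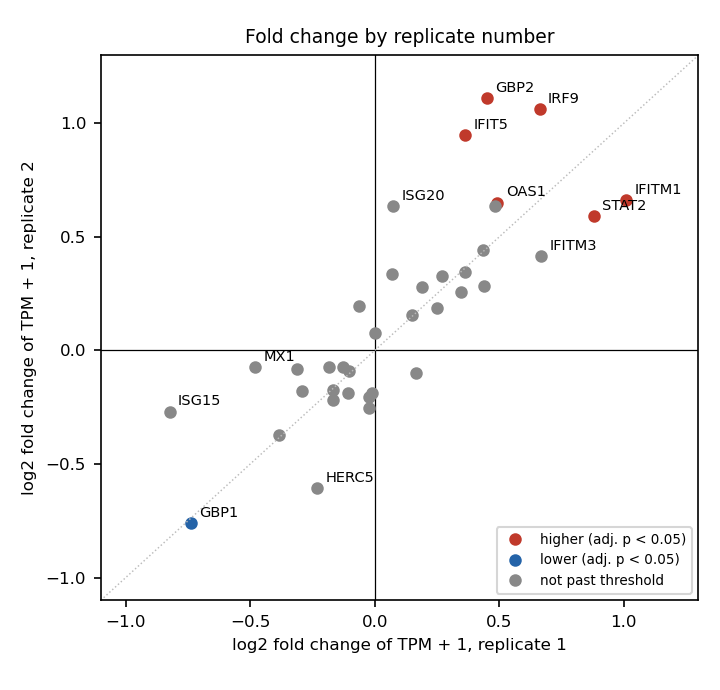
Log2 fold change of TPM + 1 between JG342 and DMSO for the 37 interferon-stimulated genes tested, with replicate 1 on the horizontal axis and replicate 2 on the vertical axis; each point is a gene and the dotted line marks equal change. GBP1 lies on the line, while GBP2, IFIT5 and IRF9 changed more in replicate 2 and ISG15 in replicate 1.

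ISG15 and HERC5 were lower in both libraries with JG342, without passing the threshold. ISG15 is a protein related to ubiquitin that is attached to other proteins, HERC5 is the ligase that attaches it, and USP18 is the protease that removes it and that also restrains the type I receptor. ISG15 was at 8.22 and 9.98 TPM with DMSO and 4.21 and 8.11 TPM with JG342, so JG342 replicate 2 lay just below DMSO replicate 1. The difference was −0.55 ± 0.25 (limma adjusted p 0.161; 0.00416 with the replicate block). HERC5 was at 32.0 and 34.8 TPM with DMSO and 27.1 and 22.5 TPM with JG342, with no overlap and a difference of −0.42 ± 0.13 (limma adjusted p 0.0552; 0.00243 with the block). After scaling to equal medians HERC5 passed (−0.49, limma adjusted p 0.0312). HERC6, a relative of HERC5, overlapped between treatments, with 4.88 and 3.41 TPM against 4.48 and 3.14 TPM.

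USP18 (NM_017414) and IFI44 lay just under the limit for testing. On a log scale, the ratios of their means between treatments (0.233 and 0.266) were further from 1 than those of the 37 genes tested. USP18 was at 1.26 and 1.06 TPM with DMSO and 0.34 and 0.20 TPM with JG342, so that both treated libraries were below both controls. When all 16057 genes were fitted without the limit, USP18 was lower by −0.77 ± 0.12 (limma adjusted p 0.0421), in a fit in which 828 genes passed. USP18 shares 98.7% identity with USP41 over 43.1% of its transcript, so reads from either may be counted in it. IFI44, an interferon-induced protein of uncertain function, was at 1.61 and 1.25 TPM with DMSO and 0.53 and 0.23 TPM with JG342 (−0.82 ± 0.16, limma adjusted p 0.0590 in that fit). The limit of 1 TPM fell between IFIT1, with a mean of 1.10 TPM, and IFI44, with a mean of 0.905 TPM.

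Sensors of foreign RNA did not pass the threshold, except DHX58 in alternative fits. Without the variance trend DHX58 passed, where 1508 of the 12042 genes tested did. DHX58, or LGP2, which tunes the other sensors, was at 1.38 and 1.23 TPM with DMSO and 2.33 and 2.46 TPM with JG342. The treatments did not overlap, and the difference was 0.56 ± 0.20 (limma adjusted p 0.0792; 0.0264 with the replicate block, and 0.0717 with the block and equal medians). IFIH1, or MDA5, which senses long double-stranded RNA, was at 23.8 and 16.9 TPM with DMSO and 22.0 and 14.7 TPM with JG342, lower in replicate 2 of both treatments. DDX58, or RIG-I, which senses RNA ends, was at 3.21 and 5.26 TPM with DMSO and 3.18 and 4.50 TPM with JG342, higher in replicate 2 of both. For these 2 genes the replicate number moved the level more than the treatment did (limma adjusted p 0.667 and 0.809). DDX60, a helper of DDX58, stayed at or below 0.16 TPM.

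Of 5 genes for nuclear bodies, DNA sensing and TRIM proteins, 4 were tested and none passed with limma. SP100 alone had an unadjusted limma p under 0.05. Over all genes tested 18.4% passed, and 4044 of 12042 had an unadjusted limma p under 0.05. These 4 genes are too few to compare with those shares. IFI16, a sensor of DNA, was at 174 and 206 TPM with DMSO and 171 and 179 TPM with JG342, with overlap (95% interval of the log2 fold change −0.36 to 0.13). SP100, a component of nuclear bodies, was at 22.5 and 20.9 TPM with DMSO and 29.3 and 26.9 TPM with JG342, a difference of 0.36 ± 0.12 (limma adjusted p 0.0721; 0.0154 with the replicate block). TRIM21, the receptor for antibody inside cells, was at 38.7 and 40.3 TPM with DMSO and 34.4 and 34.5 TPM with JG342, a difference of −0.19 ± 0.11 (limma adjusted p 0.246; 0.0476 with the block and equal medians). SP110 overlapped between treatments, and TRIM22 was below the limit, at 0.21 to 0.59 TPM.

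Among the RNA enzymes, ADAR, which edits adenosine in double-stranded RNA, was at 157 and 164 TPM with DMSO and 176 and 154 TPM with JG342. Its treated libraries lay on either side of the controls (95% interval −0.20 to 0.27). ISG20, an exonuclease of single-stranded RNA, was at 82.1 and 60.6 TPM with DMSO and 86.4 and 94.6 TPM with JG342, a difference of 0.35 ± 0.14 (limma adjusted p 0.120; 0.00150 with the replicate block and 0.145 with the block and equal medians) that was 0.07 in replicate 1 and 0.64 in replicate 2. RSAD2, or viperin, which makes a chain-terminating nucleotide, was at 1.72 to 2.53 TPM with overlap, and CMPK2, its neighbour on chromosome 2, was at 0.24 TPM or below.

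The remaining genes were described by their levels. SAMD9L, a restriction factor of poxviruses, was at 34.5 and 31.0 TPM with DMSO and 36.2 and 39.3 TPM with JG342, a difference of 0.20 ± 0.12 (limma adjusted p 0.262). Its neighbour SAMD9 was at 17.8 and 16.1 TPM with DMSO and 14.1 and 15.2 TPM with JG342, and PARP14 at 11.1 and 9.58 TPM with DMSO and 8.87 and 8.34 TPM with JG342, lower in both treated libraries without passing (limma adjusted p 0.330 and 0.303). IFI35 was at 49.4 and 44.6 TPM with DMSO and 58.9 and 50.8 TPM with JG342, a difference of 0.22 ± 0.12 (limma adjusted p 0.232). IFI6, a protein of mitochondria and the endoplasmic reticulum, was at 9.57 and 7.80 TPM with DMSO and 7.09 and 5.80 TPM with JG342 (−0.38 ± 0.17, limma adjusted p 0.156; 0.0313 with the block and equal medians). XAF1 and EPSTI1 overlapped between treatments, and XAF1 has a GENCODE transcript of the opposite strand over 70.0% of its length. PARP9 and IFI27 were below the limit, at 0.44 to 1.26 TPM, and LGALS3BP and IFI44L were at 0.19 TPM or below.

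CXCL10, a chemokine gene that interferons also induce and that is not among the 49, was at 12.1 and 11.0 TPM with DMSO and 4.36 and 2.53 TPM with JG342. It was lower in both treated libraries and passed under each of the 13 alternatives (limma adjusted p 0.00248, with a highest value of 0.0447).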

How the data were processed

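The authors deposited 1 table with a value per gene and library, each gene given by symbol and RefSeq accession. The deposited values were taken as TPM because each library sums to between 994463 and 994718 and RSEM, which reports TPM, is among the tools named; per the submitters' processing notes these were HISAT2 2.0.4, Bowtie2 2.2.5 and RSEM 1.2.12. Genome build, annotation and use of strand are not given in the sources used here. Differences were fitted with limma 3.58.1 in R 4.3.3 on log2(TPM + 1), with a mean-variance trend and treatment as the only term, for genes whose mean over the libraries reached 1 TPM. Fold changes on this scale understate the change of low genes. TPM keeps no depth, so no counting intervals are given. The pairing of replicate numbers comes from the sample descriptions, in which same-numbered libraries begin alike; across 12042 genes their deviations correlated (Pearson 0.275, Spearman 0.304), and a fit with the replicate number as a block is given for the genes described where it changed a call. With the block 1 residual degree of freedom remained, and the prior was infinite. The p-values of that fit thus rest on the spread usual for genes of that level. They do not measure how well the replicates of a single gene agreed. With the block and equal medians the prior was finite, at 7.49 degrees of freedom. Genes named are those past the threshold and those averaging 20 TPM or more; others are given by level, and USP18, IFI44, OAS3, DHX58, ISG15 and further genes in full were chosen after their values were seen. Some genes of the pathway and marker lists are not reported here. The members and lists were chosen with earlier results of these data known. Near-identical transcripts were searched with BLAST 2.17.0 in GENCODE 29 (at least 95% identity over 20%). The fit was also run on simulated data, and the result of that run is not given here. Alternatives were 2 other pseudocounts, 2 limits on low values, 2 scalings, the block alone and with equal medians, no variance trend and each library left out.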

Additional observations from a re-analysis of the deposited data

How the results depend on the processing

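Without the limit on low values 828 genes passed, 3 of the interferon-stimulated genes and 3 of the pathway genes. With the replicate block 4207 genes passed, with 16 and 9 in the lists, and with the block and equal medians 3985, with 13 and 10. Without the variance trend 1508 genes passed in place of 2221, with 7 interferon-stimulated genes and 3 pathway genes in place of 7 and 5. The share of higher genes among all calls was 1304 of 2221, and 966 of 2166 with equal medians and 1016 of 2000 with quantile normalization. Leaving out each library in turn gave 767 to 1825 genes, 1 to 6 interferon-stimulated genes and 1 to 5 pathway genes, and a median log2 fold change of the interferon-stimulated genes of 0.066 to 0.224; 1 arm then holds 1 library, assumed to vary like the rest. With equal medians 5 of the 72 tested genes of both lists turned sign, none past the threshold: ADAR (−0.035, also with the block), IFNAR2 (−0.050, also with the block), EPSTI1 (−0.009), PTPN6 (−0.003) and TREX1 (−0.038). With a library left out, turns were looked for in the 28 genes followed through the alternatives: ADAR ran from −0.066 to 0.133, IFNAR2 from −0.052 to 0.087, IFI16 from −0.237 to 0.011, TYK2 from −0.050 to 0.034 and IFNAR1 from −0.305 to 0.082. The cause of these changes was not tested. TPM records no depth, so genes near 1 TPM rest on an unknown number of reads.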

Other observations

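Values were also set beside the promoter letters and the order of the genes on the chromosomes; both were looked at after the fold changes were known, and no test was made. Among the tested genes, the 19 with an ISRE core in a promoter window had 7 positive and 12 negative log2 fold changes, with a median of −0.15, and the 13 with a window but no ISRE core had 9 positive and 4 negative, with a median of 0.20. After scaling to equal medians these medians were −0.21 and 0.13. The 5 tested genes with no window (DHX58, GBP2, IFITM2, IRF7 and OAS2) were all positive.

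Of 12 pairs of interferon-stimulated genes that neighbour each other among protein-coding genes, both genes were tested in 8, and their fold changes had the same sign in 5 and opposite signs in 3. The opposite pairs were GBP1 and GBP2 (−0.75 and 0.78), IFIT1 and IFIT5 (−0.10 and 0.66) and SAMD9 and SAMD9L (−0.20 and 0.20). IFITM1 and OAS3 each recur among the pairs of the same sign, so the pairs are not independent. The share of neighbouring pairs with the same sign over all genes was not computed. The fold changes of 34 of the 37 tested genes had the same sign in both replicate numbers (91.9%), and those of 75.5% of all genes tested did.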
